A study of Homo sapiens with 2 samples.

Results

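The 9 genes described here encode the subunits of cyclic AMP-dependent protein kinase (PKA) and the transcription factors of the CREB family. They were chosen by symbol from a table of 43337 genes, and all 9 were present: the catalytic subunits PRKACA and PRKACB, the regulatory subunits PRKAR1A, PRKAR1B, PRKAR2A and PRKAR2B, and the factors CREB1, CREM and ATF1. The cells carried the label BT549, a human triple-negative breast cancer line, and were profiled by RNA sequencing with 1 library for SIK1 S435D and 1 library for SIK1 WT. The design text of the series describes both as overexpressing SIK1, a kinase of the AMPK-related family, as the S435D form, in which aspartate replaces a serine, or as the wild-type form. No source names the vector, its promoter, how cells were selected or how many clones were used, and cells lacking a construct were not analysed here. A single library per group allows neither a test of a difference nor an estimate of the spread between replicates, so all intervals below are 95% intervals that cover counting error only and compare these libraries, not the conditions.

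PKA is held inactive by a dimer of regulatory subunits bound to catalytic subunits. Cyclic AMP, made by adenylyl cyclases and removed by phosphodiesterases, binds the regulatory subunits and sets the catalytic subunits free. Free catalytic subunits phosphorylate CREB1, ATF1 and the activating forms of CREM, which bind the cyclic AMP response element (CRE) of target genes. PKA also phosphorylates the SIK kinases, whose own substrates include the CRTC coactivators of CREB, so the members lie both upstream and downstream of the overexpressed kinase.

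CRE sequences near the members' own start sites are shown first, because PRKAR1A and CREM, at the high and the middle of the range of levels, each hold a full CRE near an annotated start. The RefSeq promoter table for GRCh38.p14 matched all 9 members and gave 31 windows, since most members have several annotated starts. Each window runs from 250 bases before a start to 50 bases after it. The full CRE palindrome, TGACGTCA, lay in 4 windows, which hold 2 distinct sites in 2 genes. Over all 35116 windows of the table, 1.85% hold it. The short motif TGACG, searched on both strands and also part of the palindrome, lay in 12 of 31 windows (38.7%) of 6 members, against 24.6% of all windows. Windows of a gene overlap in part, so they are not independent, and a match describes letters only. Both motifs contain CG, and the windows compared were not matched for GC or CpG content. The PRKAR1A site (chromosome 17, 68512381 to 68512388, plus strand) begins 49 bases before the annotated start inside the first window printed here and lies in an exon of the deposited gene model. The CREM site (chromosome 10, 35195852 to 35195859, plus strand) begins 50 bases before an internal start, in a part of CREM outside the exons of the deposited model. Each of these 2 sites also begins 2 bases after another annotated start of its gene, whose window is not printed. ICER, a short repressor form of CREM that cyclic AMP induces, is known to start inside the gene. CREM has several annotated internal starts, and which of them is that of ICER was not examined here. Another internal window, at 35194883 to 35195182, holds neither motif. Only exact matches to these 2 motifs were searched. That window repeats TGATGTCA, the palindrome with T in place of its first C, within tgatgtcattgtgatgtca. The internal CREM window printed here holds TGATGTCA as well. Such near matches were not counted. The third window printed here, at an upstream CREM start, holds the short motif at 2 places and no palindrome. Capitals mark the motifs, and each sequence is given 5′ to 3′ on the plus strand.
PRKAR1A, chr17:68512180-68512479, plus strand: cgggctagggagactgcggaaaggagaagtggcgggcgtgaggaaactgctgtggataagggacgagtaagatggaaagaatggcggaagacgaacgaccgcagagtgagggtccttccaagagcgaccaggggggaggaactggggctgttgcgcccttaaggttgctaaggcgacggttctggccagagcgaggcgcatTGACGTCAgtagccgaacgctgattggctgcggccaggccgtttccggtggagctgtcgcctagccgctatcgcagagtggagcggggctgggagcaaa
CREM internal start, chr10:35195652-35195951, plus strand: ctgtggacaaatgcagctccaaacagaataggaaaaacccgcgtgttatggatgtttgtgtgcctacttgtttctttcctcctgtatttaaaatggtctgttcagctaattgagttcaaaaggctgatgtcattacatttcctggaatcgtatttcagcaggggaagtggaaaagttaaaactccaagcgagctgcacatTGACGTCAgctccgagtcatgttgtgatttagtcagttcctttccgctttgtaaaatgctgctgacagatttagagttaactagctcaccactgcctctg
CREM upstream start, chr10:35126977-35127276, plus strand: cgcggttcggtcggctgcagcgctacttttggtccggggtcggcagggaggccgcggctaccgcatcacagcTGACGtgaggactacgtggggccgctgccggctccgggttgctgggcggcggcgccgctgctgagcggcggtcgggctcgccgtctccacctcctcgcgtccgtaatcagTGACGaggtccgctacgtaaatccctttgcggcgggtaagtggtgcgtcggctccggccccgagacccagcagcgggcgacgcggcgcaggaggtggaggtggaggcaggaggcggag
The deposited table gives 1 value per gene, so reads from ICER and from the longer CREM forms were not separated.

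The S435D library held 23520828 reads assigned to genes and the WT library 22366506, recovered as whole reads from the deposited RPKM (reads scaled to exon length and to assigned reads). SIK1 itself stood at 422 RPKM in the S435D library and 380 RPKM in the WT library, values in which construct and endogenous gene are not told apart. Its fold was 1.11 (1.09 to 1.12), so the libraries also differed in SIK1 level beyond counting error. What that difference contributed to the members' values was not tested. Of 8 markers listed for a mesenchymal breast cancer line, 5 reached a mean of 1 RPKM, led by VIM at 113 RPKM in the S435D library and 116 in the WT library. CD44 had 8 reads in each library, AXL had 20 reads in the S435D library and 17 in the WT library, and CAV1 stood just under 1 RPKM, at 0.989 RPKM in the S435D library and 0.964 in the WT library. The few reads of CD44 and AXL go against what the label BT549 leads one to look for, so the cells are named here by their label only. The hormone receptor genes ESR1, with 0 reads in the S435D library and 1 in the WT library, and PGR, with 0 in both, were at the floor, where a count of 0 allows up to 3 reads. Of the same list of 6 luminal and receptor markers, ERBB2 stood at 10.05 RPKM in the S435D library and 10.6 in the WT library, and GATA3 at 2.30 and 2.49 RPKM. The summed level was 137 RPKM in the S435D library and 141 in the WT library for the mesenchymal markers, 92.1 and 86.2 for 8 epithelial markers, 12.6 and 13.4 for the luminal and receptor markers, 5.12 and 5.09 for 5 leukocyte markers, and 0.249 and 0.220 for 4 endothelial markers. Most of the epithelial sum came from KRT8, at 47.7 and 45.5 RPKM, and KRT18, at 41.4 and 37.5. Only 3 of the 8 epithelial markers reached a mean of 1 RPKM, and CDH1 stood at 0.798 and 0.651 RPKM. PTPRC, the defining leukocyte gene, and the endothelial genes PECAM1 and CDH5 had 0 reads in both libraries. Their part in the results below was not tested. In these bulk libraries, fewer cells that express a gene and less RNA per cell cannot be told apart.

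The members covered a wide range of levels per length, and their order was nearly the same in both libraries. PRKAR1A was the highest and PRKACB the lowest. PRKAR1A, PRKACA and PRKAR2A followed each other in both libraries, with counting intervals that left out equality at each step. CREM, ATF1 and PRKAR1B came next. CREM stood above ATF1 in the S435D library by a level ratio of 1.04 (0.901 to 1.21) and ATF1 above CREM in the WT library by 1.03 (0.895 to 1.18), so these neighbours did not differ beyond counting error in either library. ATF1 and PRKAR1B did not differ beyond counting error in the S435D library (ratio 1.04, 0.888 to 1.21), whereas CREM over PRKAR1B was 1.41 (1.24 to 1.62) in the WT library. PRKAR2B, CREB1 and PRKACB completed the order in both libraries. Genes averaging at least 1 RPKM over both libraries are called expressed below. They numbered 13290, with a median level of 4.87 RPKM in the S435D library and 4.98 in the WT library, and included 8 of the 9 members, all but PRKACB.

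**Figure D1:**
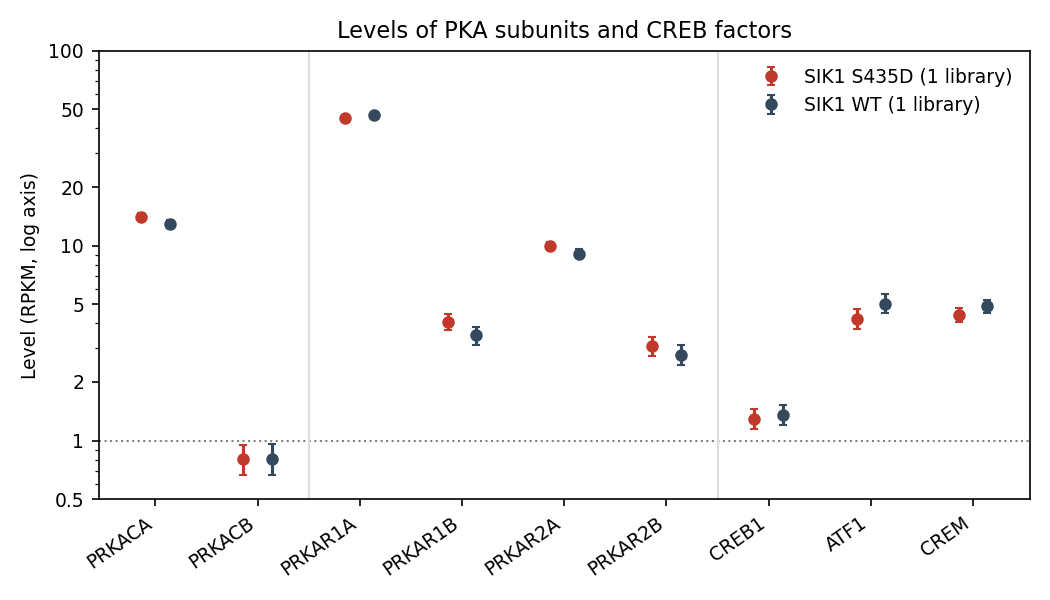
Level of each member in RPKM (log axis) in the S435D library (red, left) and the WT library (dark blue, right), 1 library each. Bars are 95% counting intervals, the dotted line marks 1 RPKM, and vertical lines part the catalytic subunits, the regulatory subunits and the factors. PRKAR1A, at 45.2 and 47.1 RPKM, stands above all others, and PRKACB, at 0.802 and 0.804, lies under the line.

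The catalytic subunits were represented almost entirely by PRKACA. PRKACA, the widely expressed catalytic subunit alpha (chromosome 19, 14091688 to 14118084, minus strand), stood at 14.1 RPKM (2039 reads) in the S435D library and 12.9 RPKM (1779 reads) in the WT library. It was higher in the S435D library, with a fold of 1.09 (1.02 to 1.16). PRKACB, catalytic subunit beta (chromosome 1, 84078062 to 84238498, plus strand), stood at 0.802 RPKM (127 reads) in the S435D library and 0.804 RPKM (121 reads) in the WT library. Its fold was 0.998, and the interval of 0.772 to 1.29 leaves room for differences of up to about that size in either direction. PRKACA made up 94.6% of the summed catalytic RPKM in the S435D library and 94.2% in the WT library. Among windows of 50 bases in the annotated transcripts, PRKACA and PRKACB share none. PRKACA shares a single such window with PRKACG, its testis-expressed relative, which was not analysed here.

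Among the regulatory subunits, the type I alpha form was the most abundant, and its fold lay below 1 while those of the other 3 lay above 1. PRKAR1A, the regulatory subunit that is mutated in Carney complex (chromosome 17, 68511780 to 68551319, plus strand), stood at 45.2 RPKM (7245 reads) in the S435D library and 47.1 RPKM (7179 reads) in the WT library. Its fold of 0.960 (0.929 to 0.992) was slightly below 1. PRKAR1B, the type I beta form best known from the nervous system (chromosome 7, 549197 to 727650, minus strand), stood at 4.07 RPKM (430 reads) in the S435D library and 3.46 RPKM (348 reads) in the WT library. Its fold of 1.17 (1.02 to 1.36) was the highest of the 9 members. PRKAR2A, the widely expressed type II alpha form (chromosome 3, 48744597 to 48847846, minus strand), stood at 9.94 RPKM (1554 reads) in the S435D library and 9.09 RPKM (1351 reads) in the WT library. Its fold was 1.09 (1.02 to 1.18), close to that of PRKACA. PRKAR2B, the type II beta form prominent in brain and fat (chromosome 7, 107044649 to 107161811, plus strand), stood at 3.04 RPKM (309 reads) in the S435D library and 2.75 RPKM (266 reads) in the WT library. Its fold was 1.10, with an interval of 0.935 to 1.31 that includes 1.

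Several of these values rest partly on exons shared with other genes, and the strand setting of the counting is not stated. PRKAR1A shares 546 exon bases (8.0%) with RP11-120M18.2 on the same strand, a gene that was counted at 91.4 RPKM in the S435D library and 96.8 in the WT library (fold 0.944, 0.904 to 0.987). PRKAR1B shares 383 exon bases (8.53%) with DNAAF5 on the opposite strand, which stood at 3.82 RPKM in the S435D library and 3.87 in the WT library (fold 0.988, 0.883 to 1.11). PRKAR2A shares 4.14% of its exon bases with PRKAR2A-AS1, with 86 reads in the S435D library and 70 in the WT library. What these shared exons contributed to the members' values was not tested. The pseudogene PRKAR1AP1 held 1 read in the S435D library and 0 in the WT library.

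By RPKM, CREB1 was the lowest of the 3 CREB family factors. This place rests on summed exon length, 9575 bases for CREB1 and 2790 for ATF1, since their reads were close in number. Whether the transcripts present have these lengths was not tested, and the counting intervals do not cover it. All 3 had a fold below 1, beside 7584 of the 13290 expressed genes that were lower, and the intervals of CREB1 and CREM include 1. CREB1, the founding member of the family (chromosome 2, 207529737 to 207603431, plus strand), stood at 1.29 RPKM in the S435D library and 1.35 RPKM in the WT library, with 290 reads in each. Its fold was 0.951 (0.805 to 1.12). ATF1, a close relative that pairs with CREB1 (chromosome 12, 50763710 to 50821122, plus strand), stood at 4.22 RPKM (277 reads) in the S435D library and 5.03 RPKM (314 reads) in the WT library. Its fold of 0.839 (0.711 to 0.989) was the lowest of the 9 members. CREM, which gives rise to activators and to the ICER repressor (chromosome 10, 35126791 to 35212958, plus strand), stood at 4.39 RPKM (589 reads) in the S435D library and 4.90 RPKM (624 reads) in the WT library, with a fold of 0.898 (0.801 to 1.01). ATF1 shares no exon bases with another gene of the table. CREM shares 3.60% with RP11-297A16.2 and CREB1 0.616% with AC007879.5, both on the opposite strand and with few reads.

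**Figure D2:**
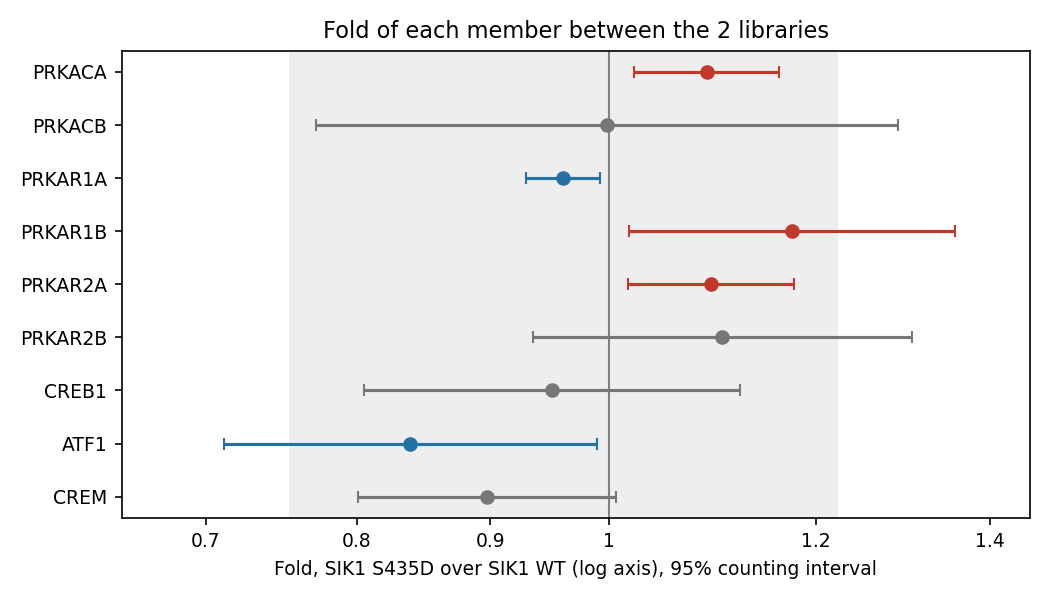
Fold of each member, S435D library over WT library (log axis), with its 95% counting interval. Red points have an interval above 1, blue points below 1 and grey points include 1, and the shaded band spans the central 90% of folds of the 13290 expressed genes (0.754 to 1.22). PRKACA, PRKAR1B and PRKAR2A lie above 1 and PRKAR1A and ATF1 below 1, and every point lies inside the band.

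Read against all genes, the members' differences were small. None of the 8 expressed members passed 2-fold on the log2 ratio with 0.5 RPKM added, which 0.339% of the 13290 genes did upwards and 0.504% downwards. None passed a fold of 1.2 in either direction, against 5.97% of expressed genes upwards and 10.4% downwards (794 and 1385 genes, or 552 and 2019 with both libraries set to the same RPKM total). The counting interval was above 1 for 3 members, PRKACA, PRKAR1B and PRKAR2A, where 8.71% of expressed genes had such an interval, and below 1 for 2 members, PRKAR1A and ATF1, where 14.7% did. An interval leaves out 1 more readily in genes with many reads, so these shares depend on depth as well as on the difference. They also depend on the scaling of the libraries. The split of all genes was 1158 above and 1954 below 1 as deposited, 1621 and 1487 when centred on the median, 1780 and 1343 when scaled by a trimmed mean of log ratios, and 497 and 3614 when both libraries were set to the same RPKM total. Under that last scaling, 0 members were above 1 and PRKAR1A, CREM and ATF1 were below it, and under centring or the trimmed mean 0 members were below 1. The direction of each member except PRKACB was the same under every scaling and pseudocount tried. The median log2 ratio of the 8 members was 0.034, with 4 higher and 4 lower, beside a median of -0.024 over all 13290 genes, of which 42.9% were higher. The members' median turned to -0.019 when both libraries were set to the same RPKM total and to -0.0017 when PRKACB was let in without a filter on low values.

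Ratios between members within a library do not depend on library scaling, so the balance of subunits was compared through them. PRKAR1A over PRKAR1B was 11.1 by RPKM in the S435D library and 13.6 in the WT library, and the ratio of these, from reads, was 0.817 (0.704 to 0.947). Type I over type II regulatory subunits, summed, was 3.79 by RPKM in the S435D library and 4.26 in the WT library (ratio from summed reads 0.885, 0.821 to 0.953). Regulatory over catalytic subunits, summed, was 4.17 by RPKM in the S435D library and 4.54 in the WT library (0.915, 0.854 to 0.980). For these 3 of the 7 ratios compared, the interval lay below 1; the intervals are not adjusted for their number, and the 3 ratios share PRKAR1A.

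For the other 4 ratios the interval included 1. PRKAR2A over PRKAR2B was 3.27 in the S435D library and 3.30 in the WT library (0.990, 0.824 to 1.19). PRKACA over PRKACB was 17.6 in the S435D library and 16.1 in the WT library (1.09, 0.837 to 1.42), an interval set by the few reads of PRKACB. CREB1 over ATF1 was 0.305 in the S435D library and 0.269 in the WT library (1.13, 0.895 to 1.44), and CREB1 over CREM was 0.293 and 0.277 (1.06, 0.865 to 1.30). By share of summed RPKM, PRKAR1A made up 72.6% of the regulatory subunits in the S435D library and 75.5% in the WT library, PRKAR2A 16.0% and 14.6%, PRKAR1B 6.54% and 5.56%, and PRKAR2B 4.89% and 4.42%. Of the factors, CREM made up 44.4% in the S435D library and 43.4% in the WT library, ATF1 42.6% and 44.6%, and CREB1 13.0% and 12.0%.

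**Figure D3:**
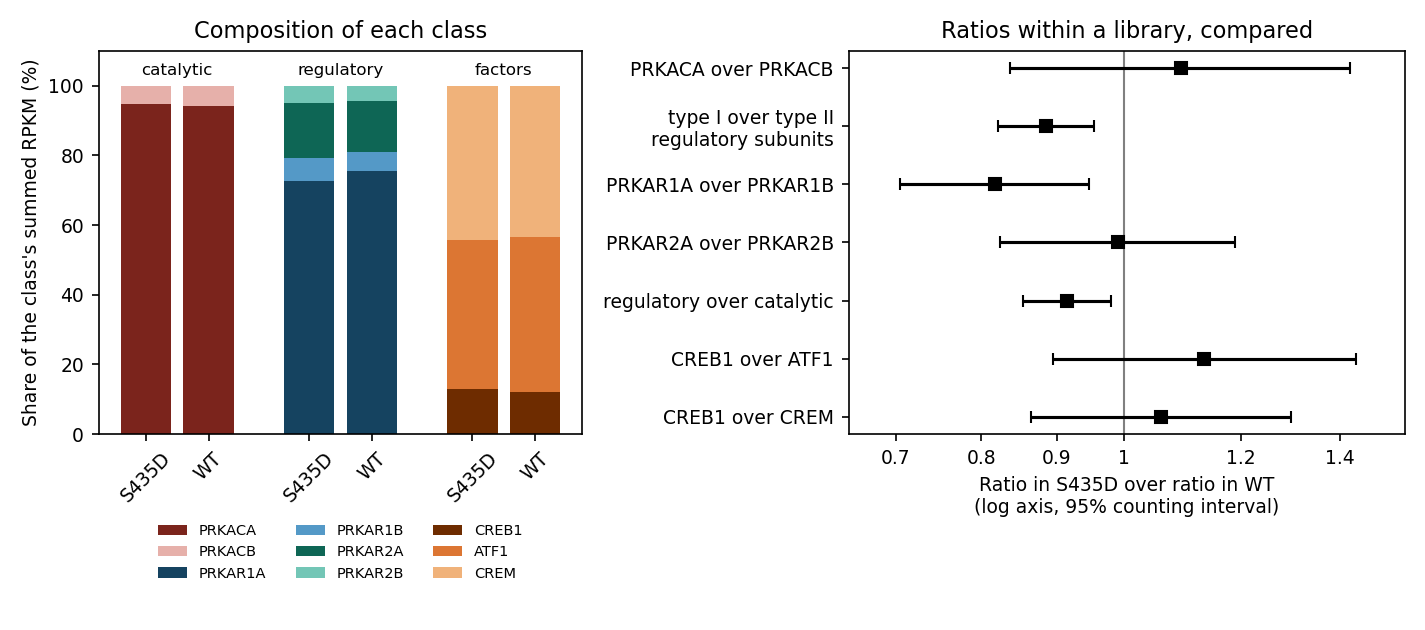
Left, share of each gene in the summed RPKM of its class (percent) in the S435D library and beside it the WT library; right, each ratio of members in the S435D library over the same ratio in the WT library (log axis), with 95% counting intervals from reads. PRKAR1A over PRKAR1B (0.817), type I over type II (0.885) and regulatory over catalytic (0.915) lie below 1 with their intervals.

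The rest of the cyclic AMP pathway was read from 9 lists of 131 genes, of which 57 were expressed, 70 lay below that level and 4 were not analysed here. Of the 57, 23 were higher and 34 lower in the S435D library (40.4% higher, beside 42.9% of all genes), and 0 passed 2-fold. None was 1.2-fold higher and 2 were 1.2-fold lower, beside 5.97% and 10.4% of all expressed genes. The counting interval was above 1 for 5 of the 57, beside 8.71% of all expressed genes, and below 1 for 4, beside 14.7%.

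Upstream of PKA, all 9 expressed genes among the G proteins and adenylyl cyclases had an interval that includes 1, with 4 higher, 5 lower and a median log2 ratio of -0.0070. GNAS, which encodes the stimulatory G protein alpha subunit, stood at 37.1 RPKM in the S435D library and 36.3 in the WT library. GNAS shares 8.73% of its exon bases, with the largest overlap from GNAS-AS1. GNAI2, an inhibitory alpha subunit, stood at 14.9 and 14.5 RPKM. ADCY3, an adenylyl cyclase that shares 26.0% of its exon bases with other genes, had the lowest ratio of the list, at 7.16 RPKM in the S435D library and 7.81 in the WT library (fold 0.917, 0.840 to 1.00006). Of 27 receptors that couple to the stimulatory G protein, 4 were expressed, 1 higher and 3 lower, and their median log2 ratio was -0.075. That median was -0.12 with both libraries set to the same RPKM total. It was -0.13 over 5 genes with mitochondrial genes left out of the totals, which lets in ADCYAP1R1, the receptor for the peptide PACAP. ADCYAP1R1, named after its values were seen, lies just under the cut for expressed genes, at 0.753 RPKM (121 reads) in the S435D library and 1.204 RPKM (184 reads) in the WT library (fold 0.625, 0.493 to 0.791). The adenosine receptor ADORA2B stood at 2.30 RPKM in the S435D library and 1.95 in the WT library (fold 1.18, 0.914 to 1.53). ADORA2A stood at 2.19 and 2.22 RPKM, and 60.0% of its exon bases are shared, mostly with a readthrough gene. GIPR, a receptor for an incretin hormone, stood at 1.85 and 2.15 RPKM (fold 0.859, 0.708 to 1.04).

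Of 16 phosphodiesterases that degrade cyclic AMP, 3 were expressed and all 3 were lower, each with an interval that includes 1. PDE4A stood at 2.02 RPKM in the S435D library and 2.08 in the WT library, PDE7A at 1.41 and 1.51, and PDE8A at 1.0 and 1.21 (fold 0.830, 0.678 to 1.02), and the median log2 ratio was -0.071. The exchange factors RAPGEF3 and RAPGEF4, which sense cyclic AMP without PKA, lay below 1 RPKM, at 0.757 and 0.495 RPKM in the S435D library and 0.763 and 0.552 in the WT library. RAPGEF3 shares 15.9% of its exon bases.

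Among PKA relatives and the PKI peptides that inhibit free catalytic subunits, 3 genes were expressed and all 3 were lower, their median log2 ratio being -0.13. PKIB had 81 reads in the S435D library and 116 in the WT library (fold 0.664, 0.494 to 0.890), the largest difference of any expressed gene on the pathway lists. It shares 13.2% of its exon bases with another gene. PKIG stood at 10.1 RPKM in the S435D library and 11.0 in the WT library (fold 0.912, 0.814 to 1.02), and PRKX, a related kinase, at 1.92 and 1.94 RPKM.

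Of 17 A-kinase anchoring proteins, which tether PKA to sites in the cell, 11 were expressed, 5 higher and 6 lower, and their median log2 ratio was -0.00031. EZR, an actin-linking protein that also anchors PKA, stood at 227 RPKM in the S435D library and 226 in the WT library, and AKAP12 at 51.2 in both. AKAP9, an anchor at the centrosome and Golgi, had a fold of 1.195 (1.09 to 1.31), at 2.34 RPKM in the S435D library and 1.96 in the WT library. AKAP8, a nuclear anchor, had a fold of 0.918 (0.865 to 0.975), at 21.1 and 23.0 RPKM.

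Beside the members, 12 of 13 other CREB/ATF factors and coactivators were expressed, 6 higher and 6 lower, and their median log2 ratio was 0.013. CREB3, a membrane-bound factor, stood at 29.6 RPKM in the S435D library and 28.9 in the WT library. CREB3 shares 10.5% of its exon bases, with the largest overlap from GBA2. ATF7 had a fold of 1.16 (1.01 to 1.32) but shares 43.8% of its exon bases with other genes. CREBZF had a fold of 0.838 (0.771 to 0.912), with 1044 reads in the S435D library and 1184 in the WT library. Of 11 kinases other than PKA that can phosphorylate CREB1, 9 were expressed, 5 higher and 4 lower, and their median log2 ratio was 0.017. RPS6KA4, which encodes MSK2, had a fold of 1.16 (1.01 to 1.32). CAMK1 stood at 43.9 RPKM in the S435D library and 39.7 in the WT library (fold 1.11, 1.05 to 1.17), and 80.1% of its exon bases are shared, mostly with OGG1. MAPKAPK2 stood at 10.9 and 10.7 RPKM, and CAMK2G had the lowest ratio (fold 0.929, 0.854 to 1.01).

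Downstream, 6 of 24 CREB target genes were expressed, 2 higher and 4 lower, and their median log2 ratio was -0.013. ATF3, a stress-induced factor, stood at 24.5 RPKM in the S435D library and 21.9 in the WT library, and its fold of 1.12 (1.05 to 1.19) was the only one of the 6 with an interval that leaves out 1. DUSP1, a phosphatase of MAP kinases, stood at 16.9 and 15.7 RPKM (fold 1.08, 0.971 to 1.19). JUNB had the lowest ratio, at 10.3 RPKM in the S435D library and 10.9 in the WT library (fold 0.949, 0.830 to 1.08). JUNB shares 14.2% of its exon bases, with the largest overlap from HOOK2. Of the other 18 target genes, all lay below 1 RPKM in mean. Medians this close to 0 changed sign under some settings: those of the G protein, anchoring protein and CREB target lists turned above 0 when centred (0.017, 0.024 and 0.011) and by the trimmed mean (0.021, 0.031 and 0.014), and those of the CREB/ATF and CREB kinase lists turned below 0 at the same RPKM total (-0.047 and -0.040).

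**Figure D4:**
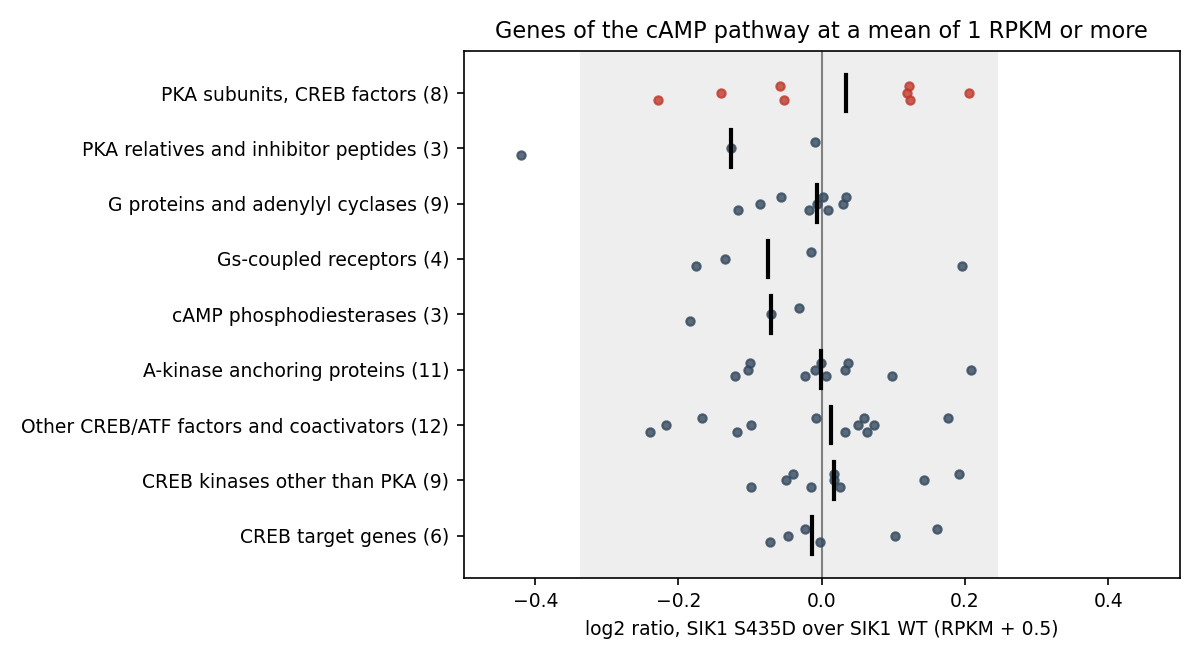
The log2 ratio of RPKM plus 0.5, S435D library over WT library, for each expressed gene, in the 8 members (red) and in the pathway lists (dark blue), with the number of genes in brackets, a black bar at each median and the central 90% of 13290 genes shaded. PKIB, at -0.42, is the only gene outside the shaded band.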

How the data were processed

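RNA was sequenced from 2 libraries of cells labelled BT549, 1 with SIK1 S435D and 1 with SIK1 WT. The authors deposited RPKM per gene with exon positions and exon length, per the file headers; aligner, counter, strand setting, build and annotation are each not given in the sources used. Start and end of all 9 members match GENCODE release 29 (GRCh38). RPKM times length gave whole reads for 100% of values above 0 (tolerance 0.01), with totals of 23520828 (S435D) and 22366506 (WT), which set the precision; a read on 2 kb equals 0.0213 and 0.0224 RPKM. From these, folds (S435D over WT) were given exact conditional (Clopper-Pearson) 95% intervals, levels exact Poisson intervals and ratios of members conditional odds ratios; overlaps of exons were counted on either strand. Reads are not known to be independent molecules. The log2 ratio used RPKM plus 0.5, and genes at a mean of at least 1 RPKM counted as expressed. With 1 library per group no test was run. Alternatives were other pseudocounts, filters and scalings. Read recovery, folds, their intervals and the trimmed mean were run on simulated Poisson counts. The intervals assume such counts, so that run could not test spread beyond counting error. Ratios of members, overlaps, motifs and shared windows were not part of it. Besides the 9 members and genes overlapping them, genes named from each list were the 2 most abundant and those with the highest and lowest ratio; with 2 libraries no likeness of pattern could be measured. Members and lists were chosen with earlier results of these data known. Tables were handled with pandas 2.3.3 and numpy 2.4.6 in Python 3.11.15, intervals came from SciPy 1.17.1 and figures from matplotlib 3.10.9.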

Additional observations from a re-analysis of the deposited data

How the results depend on the processing

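No paired analysis was possible because each group has 1 library, and no library could be left out. The count of genes past 2-fold, 45 higher and 67 lower, became 71 and 106 with a pseudocount of 0.1 RPKM, 23 and 43 with 1 RPKM, 170 and 200 without a filter, and 1 and 4 among genes averaging 5 RPKM or more. The count past 1.2-fold, 794 higher and 1385 lower, became 5762 and 7482 without a filter and 182 and 283 among genes averaging 5 RPKM or more; those 2 settings test more and fewer genes. Genes with an interval above 1 numbered 1780 by the trimmed mean and 497 at the same RPKM total, and genes below 1 numbered 3614 at the same RPKM total and 1279 among genes averaging 5 RPKM or more. Of the members, 3 above 1 became 0 at the same RPKM total. The 2 below 1 became 0 when centred or by the trimmed mean, 1 (ATF1) with mitochondrial genes left out of the totals, and 1 (PRKAR1A) among genes averaging 5 RPKM or more, where 3 members are left. The fold of PRKAR1A, 0.960, moved to 0.919 at the same RPKM total. The trimmed mean of S435D over WT was 0.978 and the ratio of RPKM totals 1.04. Of the medians of lists, the members' and 5 others changed sign under some setting. The ratios between members do not depend on these settings, and normal intervals with 0.5 added to each count called the same 3. PRKACB, CREB1, PRKAR2B and ATF1, with 121 to 314 reads, are limited by depth.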
